A study of Homo sapiens with 30 samples.

Results

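Matrix metalloproteinases are enzymes with a zinc ion in the active site that cut collagens, proteoglycans and other proteins outside the cell. The 7 genes described here are MMP1, MMP2, MMP3, MMP10, MMP14, MMP15 and MMP24, taken as the rows of the deposited expression table whose Ensembl identifiers map to these symbols. All 7 were found, out of 61597 genes in the table, and 17 further MMP genes of the table serve as a comparison. They were measured in LX2, an immortal human line derived from hepatic stellate cells in their activated state, the cell type that lays down scar matrix in injured liver. The 30 cultures formed 6 groups of 5, and 5 experiments each held 1 culture of every group.

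The cultures received a fatty acid or its vehicle first and betacellulin (BTC) or its vehicle afterwards. BTC is a ligand of receptors of the epidermal growth factor receptor family. DHA+BTC received docosahexaenoic acid (DHA) and then BTC, OLA+BTC oleic acid and then BTC, and Veh+BTC no fatty acid and then BTC. DHA+Veh, OLA+Veh and Veh+Veh had the same 3 pretreatments with no BTC. DHA is a fatty acid with 22 carbons and 6 double bonds (omega 3), and oleic acid has 18 carbons and 1 double bond (omega 9). Each was given at 50 µM on 20 µM bovine serum albumin, in 2 cycles of 48 h per the growth protocol in the labels, while a further passage there gives 96 h for the plates used for RNA. No albumin level is recorded here for the cultures without a fatty acid, so whether they received albumin is not known. BTC was given at 20 ng/ml for 72 h in medium with 1% serum. The labels do not settle whether the fatty acid was also present during these 72 h. All groups are cultures of 1 cell line, so the values describe that line and not liver tissue.

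The enzymes differ in where they act and in what they cut. MMP1 is the interstitial collagenase, which cleaves fibrillar collagens such as type I and type III. MMP3 and MMP10 are stromelysins, which cut proteoglycans, fibronectin and laminin and can activate other pro-enzymes of the family. MMP2 is a gelatinase that degrades denatured collagen and collagen of basement membranes. MMP14, MMP15 and MMP24 are anchored in the plasma membrane, and MMP14 activates the secreted pro-enzyme of MMP2 at the cell surface together with the inhibitor TIMP2. All are made as inactive pro-enzymes in which a cysteine of the propeptide blocks the zinc. In fibrotic liver, stellate cells are known both for producing fibrillar collagen and for producing these enzymes and their inhibitors.

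The stretch of coding sequence around the active site shows how close the members are to each other. It is given in the direction of the transcript from the GENCODE v29 annotation, and the capitals mark the codons of the 3 histidines that hold the catalytic zinc.
MMP1: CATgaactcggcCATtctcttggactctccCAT
MMP3: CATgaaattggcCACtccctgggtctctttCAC
MMP10: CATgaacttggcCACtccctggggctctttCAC
MMP2: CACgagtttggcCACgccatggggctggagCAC
MMP14: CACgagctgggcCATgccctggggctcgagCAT
MMP15: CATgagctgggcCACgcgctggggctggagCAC
MMP24: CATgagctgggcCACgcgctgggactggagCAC

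MMP3 and MMP10 were identical at 31 of these 33 bases, and MMP15 and MMP24 at 32. MMP1, the gene with the most reads, matched MMP3 at 24 and MMP2 at 18. Each coding sequence held the cysteine switch of the propeptide. The basic residues that furin-like proteases recognise, searched as R, any residue, K or R, R, were found in MMP14, MMP15 and MMP24 and not in the other members. MMP1, MMP3 and MMP10 lie on chromosome 11, MMP2 and MMP15 on 16, MMP14 on 14 and MMP24 on 20.

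These sequences matter for the counts. The transcripts of MMP3 and MMP10 shared 59 stretches of 50 bases, so reads from such stretches cannot be assigned to one of them, and no other pair of members shared even 30 bases in a row. WTAPP1 overlaps MMP1, MMP3 and MMP10 on the opposite strand in that annotation, MMP2-AS1 overlaps MMP2 and MMP24OS overlaps MMP24. Further partners include AC007336.3, on the same strand as MMP2, and AL121753.1, on the strand opposite MMP24. The strand setting of the counting is not given in the sources used here, and reads of such partners cannot be told apart from those of the members.

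Values are CPM, read counts scaled so that each library sums to 1000000, from 3′ tag libraries, in which each transcript gives reads near its polyadenylated end, so that levels of different genes can be compared without a correction for length. Library totals ran from 1245182 to 9490142 reads. The median was 3268410 in the 10 DHA libraries, 4203956 in the 10 oleic acid libraries and 3921124 in the 10 libraries without a fatty acid, and the 3 shallowest libraries (DHA+BTC 5, DHA+Veh 5 and DHA+BTC 4, the number being the experiment) were all DHA libraries. A level under 3 reads, between 0.316 CPM in the largest and 2.41 CPM in the smallest library, is treated as below detection. Of 8 stellate cell markers that could be tested, 6 were lower with DHA than with vehicle, in a comparison in which limma called 10.7% of all tested genes, mostly lower (1269 lower and 352 higher, or 757 and 529 after TMM scaling). Among them was the smooth muscle actin gene ACTA2 (log2 difference -1.25; adjusted p = 0.000608, or 0.069 without the experiment as a block). The hepatocyte list (6 genes) summed to at most 2.26 CPM in any library. The endothelial list summed to 0.296 to 46.4 CPM, the leukocyte list to 11.2 to 67.1 CPM with CD14 lower with DHA (log2 difference -1.19; adjusted p = 0.00233), and the epithelial list to 28.4 to 158 CPM in DHA libraries, 14.8 to 35.3 CPM in oleic acid libraries and 10.5 to 76.8 CPM without a fatty acid. The call of CD14 ended without the block (adjusted p = 0.24), and its difference was -0.74 without experiment 5 and -0.75 on removal of the 3 shallowest libraries. In the epithelial list only CDH1 was called (log2 difference 1.28 with DHA against vehicle; adjusted p = 0.0207), and that call ended under 11 of the 46 alternatives, 4 of them single libraries and 3 experiments (0.73 to 1.25, adjusted p between 0.0501 and 0.237 in those). ACTA2, CD14 and CDH1 are named after their values were seen, and the part of these markers in the results below was not tested. In bulk RNA, fewer cells that express a gene and less of its RNA per cell cannot be told apart.

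Over all 30 libraries MMP1 had the highest mean level of the members, 316 CPM, followed by MMP14 at 60.4, MMP2 at 41.1, MMP15 at 7.98, MMP3 at 7.91, MMP24 at 0.709 and MMP10 at 0.196 CPM. The order was not fixed from library to library. MMP1 exceeded MMP14 in 24 of 30 libraries, in 10 of 10 with DHA, 7 of 10 with oleic acid and 7 of 10 without a fatty acid. MMP14 exceeded MMP2 in 25 of 30 libraries, and MMP2 exceeded MMP15 in 28. MMP15 exceeded MMP3 in 24 of 30, and MMP3 stood above MMP15 in 6 of 10 DHA libraries and in 0 of 10 libraries of each other pretreatment. Neighbours in the order of means thus overlapped, and MMP15 and MMP3 had almost the same mean with very different spreads.

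**Figure D1:**
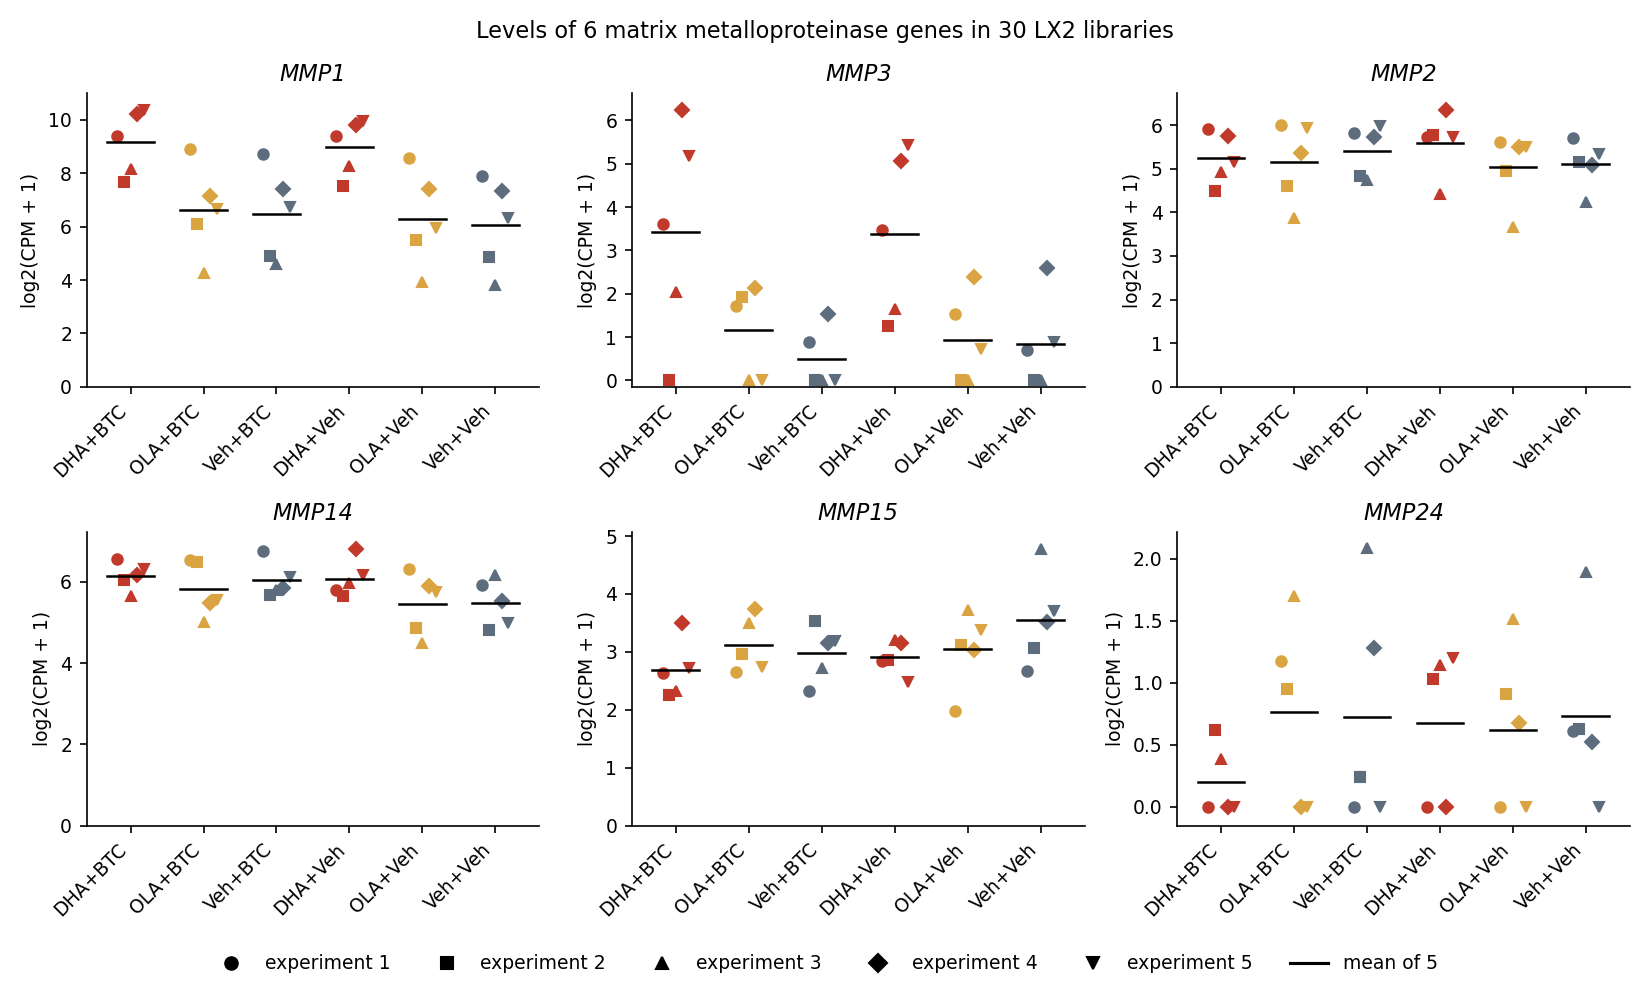
Levels of the 6 members that could be tested, as log2(CPM + 1), in each of 30 libraries. Columns are the 6 groups, symbols are the 5 experiments, colours are the pretreatment (red DHA, yellow oleic acid, grey none) and bars are group means. For MMP1 the DHA libraries stand highest within every experiment, while MMP2, MMP14 and MMP15 overlap in all groups.

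The question for the fatty acids was which members differed between DHA, oleic acid and vehicle. MMP1 and MMP3 were higher after DHA than after vehicle or oleic acid, 7.03-fold and 6.64-fold against vehicle on the log2(CPM + 1) scale, and none of the other 4 tested members was called. Calls were made by limma with the experiment as a block, where the p-value after Benjamini-Hochberg adjustment over 15137 genes was under 0.05. These genes reached 1 CPM in 5 or more libraries, which MMP10 did not. Averaged over BTC, 2 of the 6 tested members were called for DHA against vehicle, both higher, where 10.7% of all genes tested were called. For DHA against oleic acid the count was also 2 of 6, both higher, against a background of 11.4% (363 higher and 1356 lower, or 509 and 754 after TMM scaling). These comparisons share the DHA libraries, and the averages take the libraries of an experiment with and without BTC as separate values, which may make p too small.

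MMP1 reached its highest levels in the DHA cultures. In experiments 1 to 5 it had 679.7, 201, 287, 1182 and 1318 CPM in DHA+BTC, and 673.5, 180.5, 305, 894 and 1001 CPM in DHA+Veh. The oleic acid cultures had 479, 68.0, 18.0, 143 and 99.5 CPM in OLA+BTC, and 383, 44.8, 14.0, 169 and 61.3 CPM in OLA+Veh. Without a fatty acid it had 424, 28.6, 23.4, 171 and 104 CPM in Veh+BTC, and 237, 28.0, 13.2, 159.5 and 79.3 CPM in Veh+Veh. The ranges of the groups overlap, because experiment 1 was high and experiments 2 and 3 were low in every group without DHA. Within each experiment both DHA libraries stood above the other 4.

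The 10 DHA libraries averaged 672 ± 419 CPM, the 10 oleic acid libraries 148 ± 159 CPM and the 10 libraries without a fatty acid 127 ± 129 CPM (SD). The log2 difference of MMP1 for DHA against vehicle was 2.81 ± 0.27 (SE; 95% interval 2.26 to 3.37; adjusted p = 9.49e-08), and DHA was higher in 5 of 5 experiments. Against oleic acid it was 2.63 ± 0.27 (95% interval 2.07 to 3.19; adjusted p = 2.39e-07), again higher in 5 of 5. Both calls held under all 46 alternatives, with adjusted p = 0.0282 and 0.05 (just below the threshold before rounding) without the experiment block, and adjusted p = 0.000277 and 0.000387 with 1 mean per experiment and pretreatment.

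The size of the difference was uneven between experiments. Averaged over BTC, MMP1 was 1.09 log2 units higher with DHA than with vehicle in experiment 1, 2.71 in experiment 2, 4.00 in experiment 3, 2.63 in experiment 4 and 3.64 in experiment 5. Experiment 1, with the smallest difference, had the highest level in both groups without a fatty acid, and experiment 3, with the largest, had the lowest. With 5 experiments no relation between the level and the difference was tested.

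The difference of MMP1 was present with and without BTC. It was 2.69 with BTC (adjusted p = 0.0002) and 2.94 without (adjusted p = 0.000116) for DHA against vehicle, and 2.55 with BTC (adjusted p = 0.00037) and 2.71 without (adjusted p = 0.000146) for DHA against oleic acid. In each of these 4 comparisons 2 of 6 members, MMP1 and MMP3, were called. The background was 3.55% of genes for DHA against vehicle with BTC and 1.54% without, and 1.72% for DHA against oleic acid with BTC and 3.27% without. Without the experiment block neither member was called in any of the 4 (adjusted p of MMP1 between 0.464 and 0.807), and the call of MMP1 for DHA against oleic acid with BTC also ended in a fit of these 2 groups alone (adjusted p = 0.0562). Few genes were called at all there, 1 or 2 of 15137 without the block and 1 of 12984 in the fit of 2 groups.

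MMP3 was low or below detection in most libraries without DHA. In experiments 1 to 5 it had 11.2, 0, 3.09, 74.9 and 35.3 CPM in DHA+BTC, and 9.99, 1.39, 2.12, 32.6 and 42.3 CPM in DHA+Veh. In OLA+BTC it had 2.26, 2.78, 0, 3.38 and 0 CPM, and in OLA+Veh 1.88, 0, 0, 4.19 and 0.645 CPM. In Veh+BTC it had 0.855, 0, 0, 1.90 and 0 CPM, and in Veh+Veh 0.632, 0, 0, 4.99 and 0.856 CPM. The high libraries are the DHA cultures of experiments 1, 4 and 5. The groups overlap, because DHA+BTC of experiment 2 had no read and both other DHA libraries under 3 CPM, those of experiments 2 and 3 without BTC, lay within the range of the oleic acid cultures.

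A read of MMP3 was seen in 9 of 10 DHA libraries, 6 of 10 oleic acid libraries and 5 of 10 libraries without a fatty acid, and the 3 sets held 509, 63 and 43 reads. The means were 21.3 ± 24.5 CPM with DHA, 1.51 ± 1.59 CPM with oleic acid and 0.924 ± 1.56 CPM without (SD, 10 libraries each). The log2 difference for DHA against vehicle was 2.73 ± 0.41 (SE; 95% interval 1.89 to 3.57; adjusted p = 4.96e-05), higher in 5 of 5 experiments, and for DHA against oleic acid 2.36 ± 0.41 (adjusted p = 0.000365), higher in 4 of 5. The exception was experiment 2, at -0.33. Against vehicle, experiment 2 counted as higher through 4 reads in DHA+Veh, with no read in DHA+BTC, Veh+BTC or Veh+Veh.

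The call of MMP3 for DHA against vehicle held under all 46 alternatives, but its size did not. It was 1.59 with a pseudocount of 5 and 1.83 on removal of the 3 shallowest libraries (adjusted p = 0.00182), against 4.81 by edgeR and 5.19 by DESeq2 on the recovered reads. The call against oleic acid ended without the experiment block (adjusted p = 0.0825), and its size ran from 1.45 on removal of the 3 shallowest libraries to 3.64 by edgeR. Split by BTC, the log2 differences against vehicle were 2.93 with BTC (adjusted p = 0.00436) and 2.54 without (adjusted p = 0.0207), and against oleic acid 2.26 with BTC (adjusted p = 0.0382) and 2.45 without (adjusted p = 0.0171). The 3 shallowest libraries held the highest MMP3 levels, 74.9 CPM in DHA+BTC 4, 42.3 in DHA+Veh 5 and 35.3 in DHA+BTC 5. Without them the differences with BTC were 1.75 against vehicle (adjusted p = 0.127) and 1.08 against oleic acid (adjusted p = 0.611). Those without BTC were then 1.91 against vehicle and 1.82 against oleic acid (adjusted p = 0.0351 and 0.0304).

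These split calls of MMP3 rested on few libraries. The call for DHA against vehicle without BTC ended on leaving out Veh+Veh 1, Veh+Veh 5, DHA+Veh 4 or DHA+Veh 5, or any of experiments 1, 3, 4 and 5 (log2 differences 2.02 to 2.76, adjusted p between 0.0505 and 0.139), and that with BTC on leaving out experiment 4 (2.48, adjusted p = 0.0581). Against oleic acid the call without BTC ended without OLA+Veh 4, OLA+Veh 5, DHA+Veh 5 or any of experiments 3, 4 and 5 (1.88 to 2.65, adjusted p between 0.0502 and 0.1). With BTC it ended without any 1 of 7 libraries (OLA+BTC 1, 3, 4 and 5 and DHA+BTC 3, 4 and 5) or any of experiments 1, 3, 4 and 5 (1.53 to 2.35, adjusted p between 0.0562 and 0.354).

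**Figure D2:**
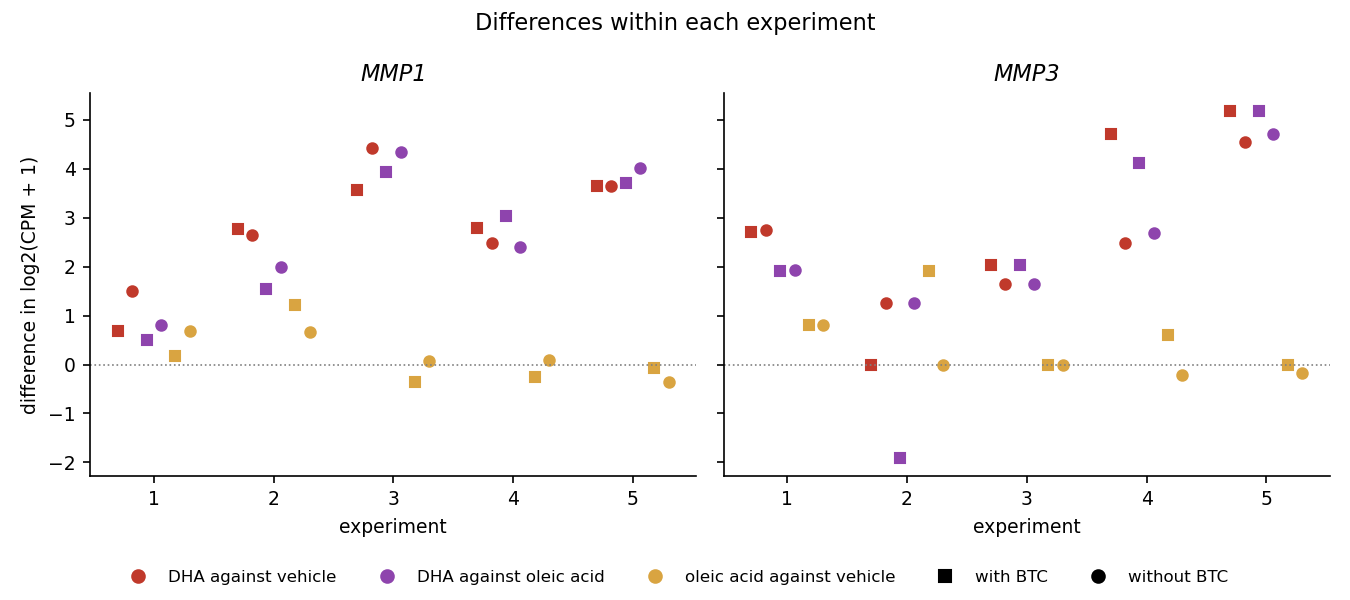
Differences in log2(CPM + 1) of MMP1 and MMP3 within each of the 5 experiments, with BTC (squares) and without (circles), for DHA against vehicle, DHA against oleic acid and oleic acid against vehicle. All 20 DHA points of MMP1 lie above 0, between 0.50 and 4.43, and the DHA points of MMP3 run from -1.92 in experiment 2 to 5.18 in experiment 5 and the oleic acid points of both genes from -0.37 to 1.92.

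MMP10, the other stromelysin, was below detection in most libraries. It reached 3 reads only in DHA+BTC 1, Veh+BTC 2 and DHA+BTC 4. It had 20 reads over all 30 libraries, 12 of them in DHA libraries, 3 in oleic acid libraries and 5 in libraries without a fatty acid. No read was seen in 20 libraries, 29 had 3 or fewer, and the largest value was 5 reads, 2.23 CPM, in DHA+BTC 4, which was also the library with the most MMP3. Whether these reads lie in the stretches shared with MMP3 was not tested, and no fold or test is given for MMP10.

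The gelatinase MMP2 was detected in every library. Its values in experiments 1 to 5 were 59.6, 21.6, 29.4, 52.6 and 34.5 CPM in DHA+BTC, and 51.7, 54.0, 20.3, 80.2 and 52.0 CPM in DHA+Veh. The oleic acid cultures had 62.9, 23.2, 13.7, 40.4 and 59.8 CPM in OLA+BTC, and 47.7, 30.0, 11.8, 44.5 and 43.9 CPM in OLA+Veh. Without a fatty acid it had 55.3, 27.5, 25.7, 51.7 and 61.6 CPM in Veh+BTC, and 51.0, 34.9, 17.9, 32.99 and 39.4 CPM in Veh+Veh. All groups overlap, and experiment 3 gave the lowest value in 5 of the 6.

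The log2 difference of MMP2 averaged over BTC was 0.16 for DHA against vehicle (95% interval -0.18 to 0.50; adjusted p = 0.593) and 0.32 for DHA against oleic acid (95% interval -0.01 to 0.66; adjusted p = 0.209). Without BTC it was 0.49 against vehicle (unadjusted p = 0.0441, adjusted p = 0.321) and 0.55 against oleic acid (unadjusted p = 0.0252, adjusted p = 0.195), and higher with DHA in 5 of 5 experiments in both, yet neither was called. With BTC it was -0.17 against vehicle (adjusted p = 0.751).

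MMP14, the membrane-bound activator of MMP2, was also detected in every library. It had 93.5, 65.3, 49.2, 70.9 and 78.7 CPM in DHA+BTC, and 54.4, 48.8, 62.1, 111 and 70.8 CPM in DHA+Veh. It had 91.6, 88.1, 31.1, 43.5 and 46.2 CPM in OLA+BTC, and 78.0, 28.3, 21.5, 58.1 and 52.9 CPM in OLA+Veh. Without a fatty acid it had 107, 49.95, 54.7, 56.2 and 68.5 CPM in Veh+BTC, and 59.3, 27.2, 70.4, 45.4 and 30.5 CPM in Veh+Veh. Its lowest values were in the oleic acid and vehicle cultures, and no group stood apart.

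Averaged over BTC, the log2 difference of MMP14 was 0.35 for DHA against vehicle (95% interval -0.06 to 0.77; adjusted p = 0.281) and 0.48 for DHA against oleic acid (95% interval 0.06 to 0.89; unadjusted p = 0.0251, adjusted p = 0.122). DHA was higher in 3 of 5 experiments against vehicle and in 4 of 5 against oleic acid. The comparison with oleic acid passed the threshold on leaving out OLA+BTC 2 (adjusted p = 0.037) or DHA+Veh 1 (adjusted p = 0.0497). Without BTC the difference was 0.60 against vehicle and 0.62 against oleic acid (unadjusted p = 0.0461 and 0.0395, adjusted p = 0.327 and 0.244).

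MMP15 and MMP24 also sit in the membrane, and neither was called in any comparison. MMP15 ran from 2.95 to 26.5 CPM with 927 reads in all, and its medians were 5.20 CPM in DHA+BTC, 6.80 in OLA+BTC, 7.86 in Veh+BTC, 6.27 in DHA+Veh, 7.66 in OLA+Veh and 10.4 in Veh+Veh. The value of 26.5 CPM came from Veh+Veh 3. Its log2 difference averaged over BTC was -0.47 for DHA against vehicle (95% interval -0.92 to -0.01; unadjusted p = 0.0452, adjusted p = 0.184), lower in 4 of 5 experiments, and -0.28 for DHA against oleic acid (adjusted p = 0.44), also lower in 4 of 5.

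MMP24 was near the limit of detection, with 81 reads in all. A read was seen in 18 libraries, 22 libraries had 3 reads or fewer, and 9 reached 1 CPM. The highest values, 3.25 CPM in Veh+BTC 3 and 2.72 CPM in Veh+Veh 3, both came from experiment 3. It had 12 reads in the DHA libraries, 35 in the oleic acid libraries and 34 in those without a fatty acid, and the log2 differences of -0.29 for DHA against vehicle and -0.25 for DHA against oleic acid were not called (adjusted p = 0.466 and 0.513; 95% intervals -0.75 to 0.18 and -0.72 to 0.21). On the recovered reads edgeR gave -0.997 and -0.94, also not called (adjusted p = 0.579 and 0.591).

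**Figure D3:**
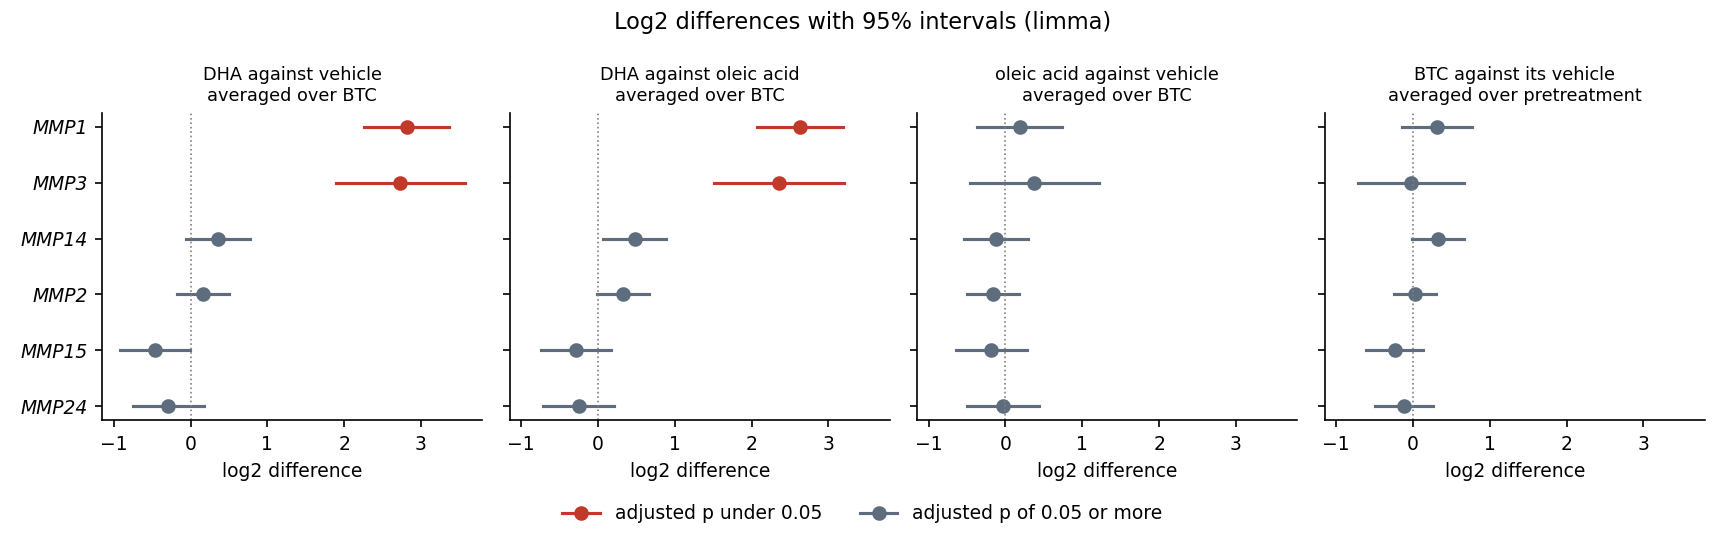
Log2 differences of the 6 tested members with 95% intervals from limma in 4 averaged comparisons (n = 10 libraries a side for the fatty acids and 15 a side for BTC). For MMP1 and MMP3 the intervals lie above 1.5 in both DHA comparisons, and all intervals for oleic acid and BTC include 0.

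Oleic acid was set against vehicle to ask whether a fatty acid of another class changed the same genes. None of the 6 tested members was called, and limma called 0% of all genes. Averaged over BTC, the differences ran from -0.18 for MMP15 to 0.38 for MMP3, which was 0.09 without OLA+BTC 2 and 1.61 by DESeq2 and not called in either. That of MMP1 was 0.19 (95% interval -0.37 to 0.74; adjusted p = 1), higher in 2 of 5 experiments. No member had an unadjusted p under 0.05, against 302 of 15137 genes, and edgeR and DESeq2 called 0 members and 0 genes. With BTC and without BTC oleic acid also gave 0 members called. The upper bound of the MMP1 interval, 0.74, lies below the lower bound for DHA against vehicle, 2.26, though both comparisons share the vehicle libraries.

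BTC was set against its vehicle to ask whether the growth factor changed the members. Averaged over pretreatment, limma called none of the 6 tested members and 0% of all genes, and edgeR and DESeq2 also called 0 of both. No member had an unadjusted p under 0.05, against 609 genes. MMP14 had the lowest unadjusted p, 0.0582, at a log2 difference of 0.33 (interval -0.01 to 0.66 at 95%; adjusted p = 0.994). MMP1 averaged 349 ± 413 CPM with BTC and 283 ± 322 CPM without (SD, 15 libraries each). Its log2 difference, 0.31, was positive in 5 of 5 experiments and not called (interval -0.14 to 0.77 at 95%; adjusted p = 0.994). The differences of MMP2, MMP3, MMP15 and MMP24 lay between -0.24 and 0.02.

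Taken after each pretreatment, BTC again gave 0 called members and 0% of all genes by limma. After vehicle the log2 difference was 0.56 for MMP14 (unadjusted p = 0.0622), 0.43 for MMP1 (unadjusted p = 0.277) and 0.31 for MMP2 (unadjusted p = 0.196). After DHA it was -0.35 for MMP2 (unadjusted p = 0.146). After vehicle 1539 genes, after oleic acid 299 and after DHA 629 had an unadjusted p under 0.05, edgeR called no gene, and DESeq2 called 1 gene after vehicle, 1 after oleic acid and 0 after DHA, none of them a member.

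Whether the response to BTC itself differed between pretreatments was tested by the interactions, and none was called for a member (0% of all genes). For DHA minus vehicle the interaction was -0.25 for MMP1 (95% interval -1.36 to 0.86; adjusted p = 0.989), 0.39 for MMP3 (95% interval -1.29 to 2.08; adjusted p = 0.988), -0.48 for MMP14 (adjusted p = 0.983) and -0.66 for MMP2 (95% interval -1.33 to 0.02; unadjusted p = 0.0557, adjusted p = 0.983). The intervals are wide, and that of MMP3 takes in more than 1 log2 unit in either direction. In the 3 interactions 527, 1279 and 572 genes had an unadjusted p under 0.05 (after DHA minus after vehicle, after oleic acid minus after vehicle, and after DHA minus after oleic acid), no member did, and edgeR and DESeq2 called none.

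The composition of the whole family was described by the summed CPM of all MMP genes in the table. The sum averaged 1024 ± 614 CPM in DHA+BTC, 389 ± 251 CPM in OLA+BTC and 379 ± 242 CPM in Veh+BTC, and 868 ± 441.3 CPM in DHA+Veh, 331 ± 232 CPM in OLA+Veh and 274 ± 122 CPM in Veh+Veh (SD, n = 5 each). MMP1 held 67.3 ± 9.93% of that sum in DHA+BTC and 66.9 ± 10.3% in DHA+Veh, against 33.3 ± 17.5% in OLA+BTC, 32.2 ± 16.3% in OLA+Veh, 31.3 ± 17.6% in Veh+BTC and 31.4 ± 19.3% in Veh+Veh (SD, n = 5 each). The groups overlap, since the lowest DHA share was 49.3% in DHA+Veh 2 and the 4 other libraries of experiment 1 had 57.3% to 60.3%, while within each experiment both DHA libraries had the highest shares. MMP3 held at most 4.85% in any library.

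**Figure D4:**
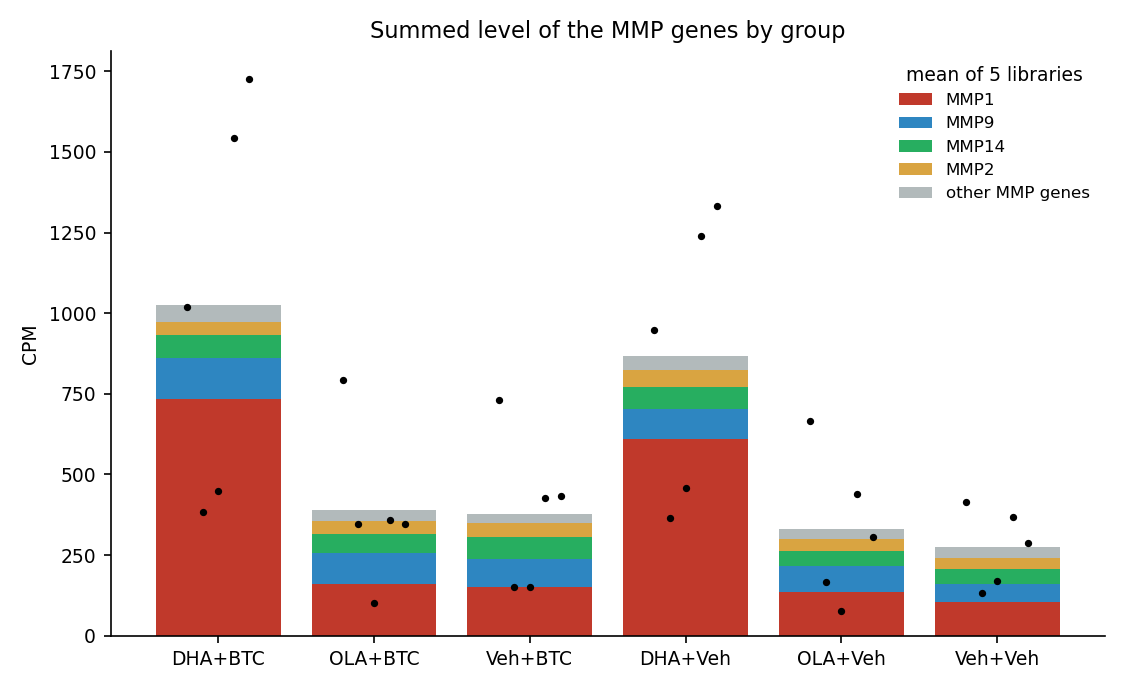
Mean CPM of MMP1, MMP9, MMP14, MMP2 and the other MMP genes stacked by group (bars, n = 5 libraries each), with the sum in every library as points. The red part, MMP1, averages 734 CPM in DHA+BTC and 611 CPM in DHA+Veh, against 103 to 162 CPM in the other 4 groups.

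Outside the 7 members, MMP9, a gelatinase like MMP2, had the highest level of the family, 90.0 CPM on average with a range of 8.46 to 223 CPM. It averaged 110 ± 56.4 CPM with DHA, 87.6 ± 51.1 CPM with oleic acid and 72.3 ± 54.4 CPM without a fatty acid (SD, 10 libraries each). It was called for DHA against vehicle (log2 difference 0.88 ± 0.28; adjusted p = 0.0392) and not for DHA against oleic acid (0.60; adjusted p = 0.162). The call against vehicle was close to the threshold and ended under 21 of 46 alternatives, among them 12 of the 30 that leave out a single library and all 5 that leave out an experiment (log2 differences 0.63 to 1.08, adjusted p between 0.0508 and 0.0942). Against oleic acid MMP9 passed the threshold under 2 of 46 alternatives, with adjusted p = 0.0198 as the lowest. Of the 23 human MMP genes listed, 12 could be tested, and 3 were higher and 0 lower for DHA against vehicle, MMP9 among them, beside 10.7% of all genes called. The median log2 difference was 0.10, beside -0.13 for all genes.

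The other MMP genes tested were MMP19 with a mean of 10.6 CPM, MMP16 with 5.55, MMP25 with 1.76, MMP11 with 1.00 and MMP17 with 0.901 CPM. Their log2 differences for DHA against vehicle lay between -0.33 (MMP16) and 0.30 (MMP25), and none was called. The remaining MMP genes had 18 reads or fewer in the 30 libraries, apart from MMP10 with 20.

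The genes around the enzymes were described from lists of inhibitors, activators, transcription factors, upstream cytokines and substrates. Of 6 tested inhibitors of MMPs, 2 were higher and 1 lower for DHA against vehicle, and the same counts held for DHA against oleic acid, where limma called 10.7% and 11.4% of all genes. The median against vehicle was 0.01 beside -0.13 for all genes. TFPI2, a Kunitz-type protease inhibitor of the extracellular matrix, averaged 1183 ± 916 CPM with DHA and 111 ± 79.2 CPM without a fatty acid (log2 difference 3.22 ± 0.30; adjusted p = 5.34e-08), and TIMP1, a secreted inhibitor of most MMPs, was 1.04 higher (adjusted p = 4.96e-05). TIMP3, the inhibitor that is bound to the matrix, was lower, at 97.4 ± 77.2 CPM with DHA and 150.4 ± 54.6 CPM without a fatty acid (log2 difference -1.01; adjusted p = 0.00282). That difference was -0.56 on removal of the 3 shallowest libraries and -0.65 without experiment 4. Without the experiment block the calls of TIMP1 and TIMP3 ended (adjusted p = 0.125 and 0.286). RECK, a membrane-anchored inhibitor, had a log2 difference of -0.63 that was not called (adjusted p = 0.186).

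Of 11 tested activators of pro-MMPs and their brakes, 2 were higher and 0 lower for DHA against vehicle. Beside them, 10.7% of all genes were called, 352 higher and 1269 lower. The median was 0.28 beside -0.13 for all genes. SERPINE2, an inhibitor of plasminogen activators and thrombin, was 0.93 higher (adjusted p = 2.81e-05). PLAUR, the receptor of urokinase, was 1.37 higher (adjusted p = 0.00178), and PLAT, a plasminogen activator, had a log2 difference of -0.40 that was not called (adjusted p = 0.0865). For PLAT the call was gained on leaving out Veh+Veh 2 (adjusted p = 0.0405) or experiment 2 (adjusted p = 0.0284). CTSB, the lysosomal protease cathepsin B, had a log2 difference of 0.35 (adjusted p = 0.117), which passed the threshold under both other scalings, edgeR and DESeq2 (0.46 to 0.48, adjusted p between 0.0128 and 0.037). The calls of SERPINE2 and PLAUR ended without the block (adjusted p = 0.408 and 0.0865), and that of PLAUR also when the 3 shallowest libraries were removed (adjusted p = 0.0623). For DHA against oleic acid SERPINE2 and PLAUR were again higher, and BSG, a surface glycoprotein known to induce MMPs, was lower (log2 difference -0.50; adjusted p = 0.0257), a call chosen for mention after its value was seen that ended under 15 of 46 alternatives, including 4 single libraries and 3 experiments (adjusted p between 0.0501 and 0.196 in those).

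Of 14 tested transcription factors that bind AP-1 or ETS elements, which are found in promoters of several MMP genes, 1 was higher and 0 lower in each DHA comparison, no larger a share than the 10.7% and 11.4% of all genes called. The median was 0.06 for DHA against vehicle, beside -0.13 for all genes. JUNB averaged 129 ± 42.2 CPM with DHA and 80.9 ± 39.3 CPM without a fatty acid (log2 difference 0.75; adjusted p = 0.00488). It missed the threshold on removal of the 3 shallowest libraries (adjusted p = 0.0748) or of the block (adjusted p = 0.297). JUN, JUND and ETV1 had log2 differences of 0.25, 0.25 and -0.50 and were not called.

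Of 9 tested cytokines listed as upstream of MMP genes, 4 were higher and 1 lower for DHA against vehicle, and 6 were higher and 1 lower for DHA against oleic acid, beside 10.7% and 11.4% of all genes called. The list does not separate cytokines that raise an MMP gene from those that lower it. The medians were 0.95 and 1.15, beside -0.13 and -0.17 for all genes. CXCL8, a chemokine for neutrophils, averaged 201 ± 237 CPM with DHA and 6.78 ± 5.84 CPM without a fatty acid (log2 difference 3.99 ± 0.46; adjusted p = 9.33e-07). IL1B, an inflammatory cytokine, was 2.85 higher (adjusted p = 5.11e-05), IL11 1.69 higher (adjusted p = 0.000312) and IL1A 1.498 higher at a low level, 3.62 CPM with DHA against 0.212 CPM without a fatty acid (adjusted p = 0.00142). These 4 calls held under all 46 alternatives, but not their sizes. IL1A ran from 0.60 with a pseudocount of 5 to 4.26 by DESeq2, and IL11 was 0.90 on removal of the 3 shallowest libraries and 1.11 without experiment 5. IL1A reached the level needed for testing only through the DHA libraries. Its median was 0.101 CPM with oleic acid and 0 CPM without a fatty acid, with highest values of 1.61 and 1.475 CPM. Its place among the 4 higher genes thus depends on the group where it is high. The gene that was lower was TGFB2, a growth factor of matrix production, at -1.15 (adjusted p = 0.00296), named after its value was seen, and its call ended in 2 alternatives, one of them without experiment 3 (log2 difference -0.91; adjusted p = 0.0506).

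Of 14 tested matrix substrates, 1 was higher and 4 were lower for DHA against vehicle, and 1 was higher and 3 were lower for DHA against oleic acid, beside 10.7% and 11.4% of all genes called, most of them lower. The median against vehicle was -0.28 beside -0.13 for all genes. HSPG2, which encodes perlecan of basement membranes, averaged 30.1 ± 21.0 CPM with DHA and 76.3 ± 43.8 CPM without a fatty acid (log2 difference -1.39; adjusted p = 7.39e-05). The fibrillar collagen genes COL1A2, COL3A1 and COL1A1, whose products MMP1 cuts, had log2 differences of -1.51, -0.71 and -0.53 (adjusted p = 0.00105, 0.0148 and 0.0282).

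The substrate calls differed in how well they held. The call of HSPG2 held under all 46 alternatives, at -0.92 on removal of the 3 shallowest libraries, and that of COL1A2 under all but the fit without the block (adjusted p = 0.0825). The call of COL3A1 ended without experiment 3 or 5 (adjusted p = 0.0932 and 0.108), on removal of the 3 shallowest libraries (adjusted p = 0.228) and in the fit with no block (adjusted p = 0.661). That of COL1A1 ended under 17 alternatives, including TMM scaling (adjusted p = 0.139), 7 single libraries and 3 experiments (log2 differences -0.58 to -0.36, adjusted p between 0.0513 and 0.203 in those). The higher gene was TNC, a matrix glycoprotein, at 0.70 (adjusted p = 0.0482), named after its value was seen, and its call ended under 27 alternatives, 18 of them single libraries and 4 experiments (adjusted p between 0.0529 and 0.281 in those).

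**Figure D5:**
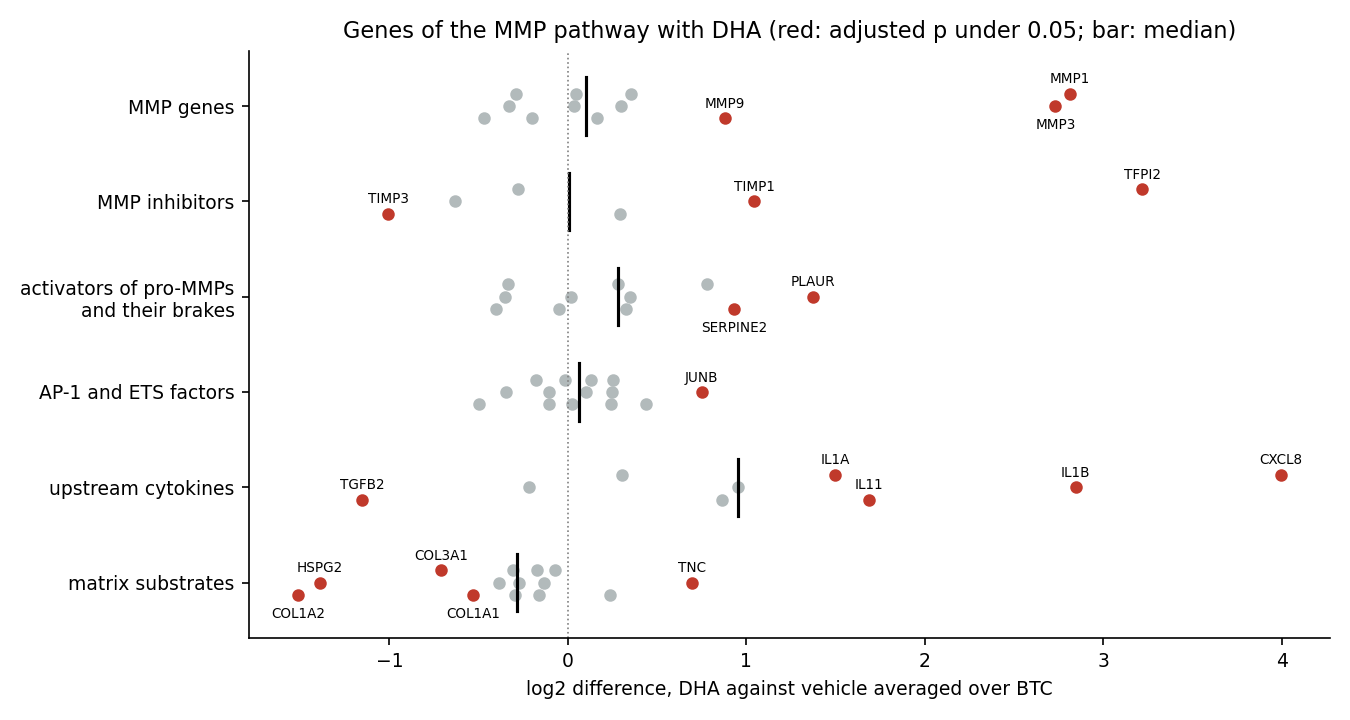
Log2 differences for DHA against vehicle averaged over BTC, from limma, of the tested genes in 6 lists, with called genes in red and named and the list median as a bar. The upstream cytokines have the highest median, 0.95, and the matrix substrates the lowest, -0.28, and 13 of 14 transcription factors lie within 0.5 of 0.

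None of the genes in these lists was called for BTC averaged over pretreatment, in a comparison in which limma called no gene, 609 had an unadjusted p under 0.05, and edgeR and DESeq2 called 0.

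Genes with a pattern like that of a member were found by Pearson's correlation of log2(CPM + 1), centred within each experiment, over the 30 libraries, among genes with a mean of at least 5 CPM. For MMP1 the closest were TFPI2 (r = 0.96), ITGA2, which encodes a subunit of a collagen receptor (0.95), TMEM158 (0.95), DDIT3 (0.94) and HMOX1 (0.94). For MMP3 they were IL11 (0.94), CSF3 (0.92), IL24 (0.92), ZC3H12A (0.92) and MT1F (0.91). These values describe libraries that share the DHA contrast and differences in depth, while the mean level of each experiment was removed. MMP1 and MMP3 correlated with each other at 0.81, and MMP1 with MMP14 at 0.52, with MMP2 at 0.32 and with MMP15 at -0.57.

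MMP2 and MMP14 had less close companions. For MMP2 these were PSENEN (0.80), PRKCSH (0.78), DGAT2 (0.76), DDX39A (0.73) and PLP2 (0.72), and for MMP14 they were ANPEP (0.78), TRAC (0.75), RPLP0P2 (0.70), RIOK3 (0.70) and PHLDA1 (0.69). MMP2 and MMP14, the substrate and its activator, correlated with each other at 0.31.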

How the data were processed

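RNA of 30 LX2 cultures was profiled with QuantSeq 3′ FWD libraries, per the labels' protocols. The authors deposited 1 table of CPM values, in which each library sums to 1000000. The tools were STAR 2.5.3a for alignment and HTSeq 0.6.0 for counting, per the submitters' processing notes, while build, annotation and strand setting are not given in the sources used here. Values were whole multiples of 1 read in every library (100% of values within 0.01 read), so reads were recovered and used for edgeR and DESeq2 as alternatives. Symbols matched 61444 identifiers (99.8%).

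The main test was limma 3.58.1 (R 4.3.3, trend, two-sided) on log2(CPM + 1), over 15137 genes that reached 1 CPM in 5 or more libraries. All 30 libraries entered 1 fit with group and experiment as terms, and p-values were adjusted by Benjamini-Hochberg within each comparison. Folds and differences are on that scale, which understates changes of low genes. The experiment was blocked because the labels name it and each holds every group. Deviations from group means correlated in all 75 same-experiment pairs (0.119 or more, median 0.507), against a median of -0.169 between experiments, and 28 of 30 libraries correlated best with their own experiment. Nothing says whether the experiments were separate passages, so a p-value reflects only how far these cultures differ, which may be technical. No 2 libraries were identical, and no 2 libraries of the same group were within sampling noise of each other.

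Alternatives were pseudocounts of 0.5 and 5, no filter, TMM and median-of-ratios scaling, edgeR 4.0.16, DESeq2 1.42.0, no block, only the groups compared, 1 mean per experiment, the 3 shallowest libraries left out, and each library or experiment left out. From each list, the 4 tested genes with the smallest p for DHA against vehicle were named, and every tested MMP gene. A listed activator is not reported here and was left out of its list. The members and lists were chosen with earlier results of these data known. Limits of detection cover counting error only, since the labels name no molecular identifiers that would mark PCR duplicates. The active-site sequences come from GENCODE v29.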

Additional observations from a re-analysis of the deposited data

Results flagged for a closer look

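In 4 of 36 groups of 5 libraries, the highest library stood further from the others than Dixon's 95% critical value allows for 5 samples, where chance would give about 1 in 20 groups. MMP1 had 479 CPM in OLA+BTC of experiment 1, against 18.0 to 143 CPM in the other 4 libraries of that group. MMP3 had 4.99 CPM in Veh+Veh of experiment 4, against 0 to 0.856 CPM in the others. MMP15 had 10.25 CPM in DHA+BTC of experiment 4, against 3.78 to 5.62 CPM in the others. MMP24 had 2.72 CPM, from 7 reads, in Veh+Veh of experiment 3, against 0 to 0.549 CPM in the others. For MMP1, MMP3 and MMP24 the same experiments were also the highest in the group with the same pretreatment and the other treatment.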

How the results depend on the processing

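The count of 2 called members for DHA against vehicle averaged over BTC stayed 2 under every alternative. For DHA against oleic acid averaged it was 1 (MMP1) without the replicate block, 3 without OLA+BTC 2 or DHA+Veh 1, where MMP14 was also called, and 2 otherwise. Without the block, which pairs libraries by experiment, the counts for the 4 DHA comparisons split by BTC were 0, and all genes called for DHA against vehicle averaged numbered 104 in place of 1621. In each of the 4 split comparisons 1 or 2 of all 15137 genes were called without the block. For DHA against vehicle, the count without BTC was 1 with no filter, and with BTC it was 1 in the fit of only the groups compared and 1 without the 3 shallowest libraries. All genes called in those 2 fits with BTC numbered 8 of 12929 and 81 of 14975, in place of 537 of 15137. For DHA against oleic acid without BTC it was 1 with no filter. For DHA against oleic acid with BTC it was 1 with a pseudocount of 0.5, with no filter, by DESeq2 and without the 3 shallowest libraries, and 0 in the fit of only the groups compared. That last fit called 1 of all 12984 genes. All genes called numbered 28 of 14975 without the 3 shallowest libraries and 311 by DESeq2, beside 261 in the main fit. Leaving out 1 library or experiment gave 1 to 2 in each of these 4 comparisons. The other counts of called members stayed 0 for oleic acid, BTC and the interactions in every alternative run.

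Directions reversed only in uncalled differences, of which the MMP3 interaction (DHA minus vehicle), at 0.39, was the largest. For MMP3 with BTC averaged over pretreatment the value was 0.034 with a pseudocount of 5 and 0.39 by DESeq2, and its interaction (DHA minus vehicle) was -0.16 without the 3 shallowest libraries. When libraries or experiments were left out, MMP3 with BTC ran from -0.22 to 0.20, MMP2 with BTC from -0.073 to 0.19, and the interaction ran from -0.60 to 0.14 for MMP1 and from -0.065 to 1.07 for MMP3. For oleic acid against vehicle MMP1 ran from -0.0031 to 0.29, MMP14 from -0.26 to 0.15 and MMP24 from -0.17 to 0.10. The cause of these changes was not tested. BTC averaged over pretreatment uses all 6 groups, so it has no fit of only the groups compared. Low counts limit MMP3 outside the DHA cultures, MMP24 and MMP10.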
